A study of Mus musculus with 13 samples.

Results

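Mature leukemia cells (mAML) were set against leukemia stem cells (LSC) of a mouse leukemia carrying the MLL-AF10 fusion, 1 mRNA library each of the 13 libraries in the series. All 24328 genes in the tables entered by symbol. Per the labels, both libraries were tumor cells from mouse bone marrow, untreated as far as the labels say, and differed in the cell type given: mature AML cells in mAML and leukemia stem cells in LSC. Values are set beside 2 untreated 0 h LSC libraries, the start of a drug time course, and 1 library of wild-type (WT) granulocyte-monocyte progenitors (GMP), also from bone marrow. The growth protocol speaks of MLL-AF10 leukemia cells kept in RPMI medium with fetal bovine serum and WEHI-conditioned medium, and does not say whether the single mAML and LSC libraries were cultured. The sort that separated mAML from LSC, the strain, the age, the sex and the number of mice are not stated there.

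MLL fusions recruit transcription elongation factors to the genes they bind, keep Hoxa genes and Meis1 active, and hold myeloid progenitors in a self-renewing state. In mice such leukemias form a hierarchy in which Kit-bearing stem cells give rise to more mature myeloid cells that lose Kit. Normal neutrophils make their granules in order: azurophil enzymes in the promyelocyte, lactoferrin and other secondary granule proteins in the myelocyte, gelatinase granules later, and receptors for chemotaxis last. Monocytes leave the same progenitors under Irf8 and Klf4.

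With 1 library a side there is no replicate check and no test, so every ratio describes these libraries only. The total was 47257642 rounded expected counts in mAML and 40468515 in LSC. Ratios are log2 values of mAML over LSC from counts scaled by TMM, a normalization by trimmed mean ratios, and brackets hold the 95% exact counting interval, which leaves out differences between mice and preparations. Levels are given in scaled CPM, counts relative to library size, or in TPM, transcript abundances, which correct for gene length.

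At 10 CPM or more in the higher library stood 9082 genes. In mAML, 563 of them (6.2%) exceeded their LSC level by 4-fold or more, and 125 (1.38%) fell short of it by as much. Over all genes, 45.9% reached 1 CPM in mAML and 44% in LSC. The higher genes made 16.2% of all TPM in mAML and 1.69% in LSC, and the lower genes 0.388% of TPM in mAML and 4.07% in LSC. Most genes stayed close, with 80.3% less than 2-fold apart and a median ratio of -0.04. The libraries labelled LSC were not alike, however. Of genes at 10 CPM, 7.66% lay at least 4-fold apart between mAML and LSC, 10.9% and 11.6% between the single LSC library and the 0 h replicates, and 0.201% between the 0 h replicates themselves. The single LSC library thus differed from the 0 h LSC libraries at more genes than it differed from mAML, and a gene that separates mAML from LSC may not separate it from the 0 h cells. Counts of list members are over those at 1 CPM or more in either library. Of all 11499 genes at that level, 16.5% were at least 2-fold higher in mAML and 8.97% lower, and each list's count stands beside these shares.

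**Figure D1:**
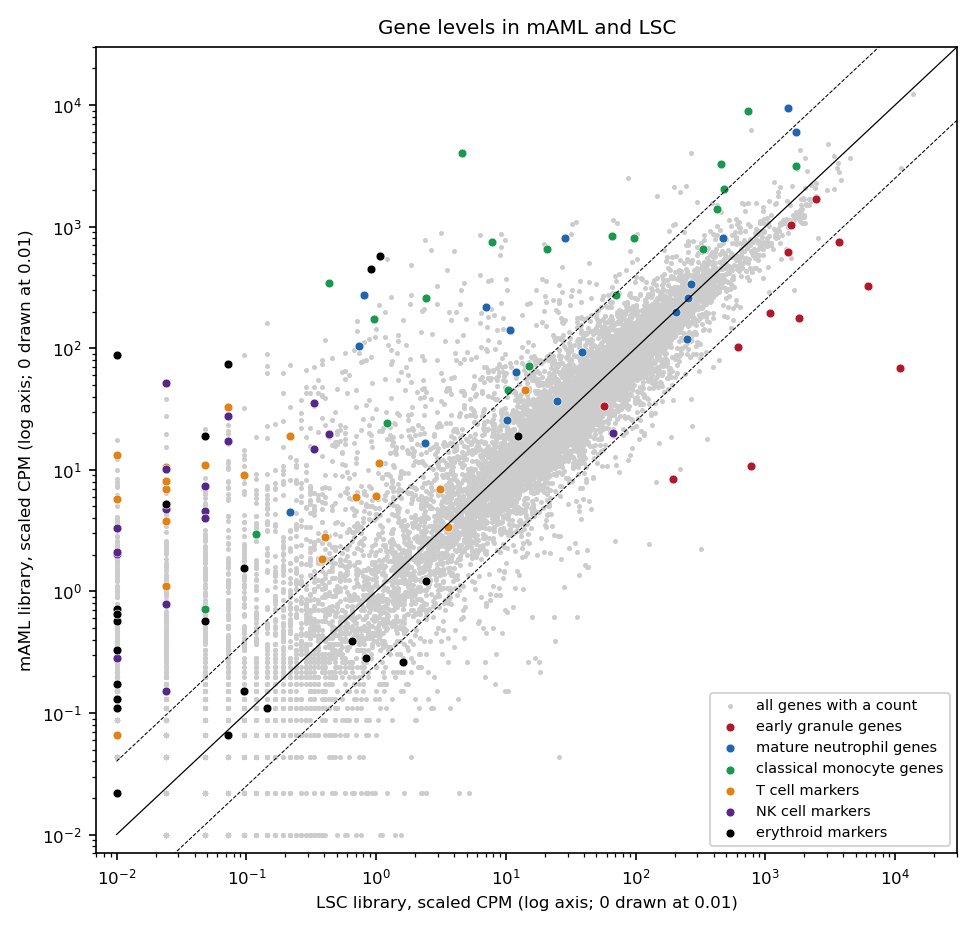
Scaled CPM of each gene in the mAML library (vertical, log axis) and the LSC library (horizontal, log axis), with the line of equal level and dashed lines 4-fold to either side. All 12 early granule genes lie below the line of equal level, all 20 classical monocyte genes lie above it, and most T, NK and erythroid markers stand at the left edge, with few or no counts in LSC.

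Kit and Irf8, the genes given as markers of these cells, differed strongly. Kit, the receptor for stem cell factor, had 103 counts in mAML and 13288 in LSC, or 0.63 and 93.35 TPM. The 0 h LSC libraries had 46 and 45.2 TPM and GMP 113 TPM, so of these 5 libraries mAML alone was near 0. If the cells were sorted on Kit, as is common in this model, its ratio of -7.15 [-7.44, -6.87] reflects the sort. Irf8, the factor that directs monocyte and dendritic fate, had 32749 counts in mAML and 829 in LSC. GMP, at 204 TPM, stood nearer to mAML (372 TPM) than to LSC (10.9 TPM), and the 0 h libraries had 16.9 and 19 TPM.

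Early granule genes were lower in mAML, and most late neutrophil genes were higher. Of 12 early granule genes, 9 were at least 2-fold lower and 0 higher, against 7.04% lower among all genes at 10 CPM, and their summed level was 8310 TPM in mAML and 41416 TPM in LSC. Their median ratio was -2.54, but -1.07 against the summed 0 h libraries, where the sums were 16727.5 and 15330.5 TPM. Ctsg, which encodes cathepsin G, had 297 TPM in mAML and 3171 TPM in LSC, a ratio of -3.34 [-3.37, -3.30]. Prtn3, which encodes proteinase 3, had 1298 TPM in mAML and 6812 TPM in LSC (-2.31 [-2.33, -2.29]), with 1609 and 1245 TPM in the 0 h libraries, to either side of mAML. Serpinb1a, an inhibitor of these proteases, had 156 TPM in mAML and 916 TPM in LSC. Fcnb, which encodes a ficolin of neutrophil precursors, had 157 TPM in mAML and 1008 TPM in LSC, but under 1 TPM in both 0 h libraries. Plac8, Calr and Cst7 were the 3 members within 2-fold, at ratios of -0.54 to -0.77. Cd63, a membrane protein of azurophil granules outside the list, followed the enzymes, with 43.7 TPM in mAML and 546 TPM in LSC (-3.56 [-3.65, -3.47]).

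The 250 bases before the start of 4 of these genes are shown. All 4 were lower in mAML than in LSC, at ratios from -2.31 (Prtn3) to -7.31 (Mpo). Every 1 of the 4 holds the letters AGGAAGT, a core that ETS-family factors such as PU.1 can bind. Capitals mark AGGAAGT on either strand, and each sequence is read 5′ to 3′ along the gene from RefSeq promoters of build GRCm38.p6. Elane lies at chr10:79886062-79886311 and Prtn3 at chr10:79879417-79879666, both on the plus strand, Mpo at chr11:87793534-87793783 on the plus strand and Ctsg at chr14:56102575-56102824 on the minus strand.
Elane: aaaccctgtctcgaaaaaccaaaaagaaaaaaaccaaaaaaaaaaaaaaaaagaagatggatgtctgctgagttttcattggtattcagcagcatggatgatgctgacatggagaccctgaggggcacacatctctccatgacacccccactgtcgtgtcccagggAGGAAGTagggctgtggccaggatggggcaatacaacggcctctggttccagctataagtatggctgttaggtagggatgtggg
Prtn3: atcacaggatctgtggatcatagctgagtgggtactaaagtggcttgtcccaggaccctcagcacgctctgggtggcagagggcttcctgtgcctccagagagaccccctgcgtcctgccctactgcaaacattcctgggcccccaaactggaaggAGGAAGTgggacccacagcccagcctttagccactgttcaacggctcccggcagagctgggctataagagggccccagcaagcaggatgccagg
Mpo: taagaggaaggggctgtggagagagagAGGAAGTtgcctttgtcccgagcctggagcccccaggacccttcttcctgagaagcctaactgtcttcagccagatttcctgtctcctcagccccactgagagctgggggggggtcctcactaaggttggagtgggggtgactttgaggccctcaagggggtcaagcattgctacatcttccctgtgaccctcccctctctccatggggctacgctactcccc
Ctsg: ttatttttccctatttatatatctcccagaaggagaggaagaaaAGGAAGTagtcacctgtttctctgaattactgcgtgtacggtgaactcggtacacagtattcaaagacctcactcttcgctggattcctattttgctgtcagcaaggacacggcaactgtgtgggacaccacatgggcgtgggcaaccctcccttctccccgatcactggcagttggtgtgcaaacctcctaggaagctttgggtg
AGGAAGT stood on either strand in 2525 of 32851 promoter windows of this length (7.69%), and in 6 of the 10 early granule genes that had a window. The letters were picked after these windows were read, so the share is a description and no site of binding. Spi1, which encodes PU.1, was level between the libraries, at 439 TPM in mAML and 430 TPM in LSC (0.11 [0.08, 0.14]).

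The secondary and tertiary granule genes split. Of 17 genes, 8 were at least 2-fold higher and 4 lower, with a median of 0.81. The higher ones included Mmp9, the gelatinase of tertiary granules, with 507 TPM in mAML and 16.9 TPM in LSC (4.97 [4.90, 5.05]). Ltf, which encodes lactoferrin, had 1368 TPM in mAML and 50.2 TPM in LSC (4.84 [4.79, 4.89]). Lcn2, the siderophore-binding lipocalin, had 4264 TPM in mAML and 427 TPM in LSC, and Ngp, another secondary granule protein, had 8774 TPM in mAML and 1150 TPM in LSC. The lower ones were Chil3, Cebpe, Abca13 and Chil1. Chil3, which encodes a chitinase-like protein, fell to 3093 TPM in mAML, against 11832 TPM in LSC (-1.86 [-1.87, -1.85]), but the 0 h libraries had 309 and 166 TPM, below mAML. Cebpe, the factor that drives the secondary granule program, had 73.3 TPM in mAML and 241 TPM in LSC (-1.64 [-1.70, -1.57]). Camp, Hp and Padi4 lay within 2-fold, so the members of this mixed list did not move as a block.

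Genes of the mature neutrophil were mostly higher. Of 18, 12 were at least 2-fold higher and 1 lower, against 16.5% higher and 8.97% lower among all genes at 1 CPM, and the median was 2.10. Fpr1 and Fpr2, receptors for bacterial formyl peptides, had ratios of 7.13 [6.62, 7.69] and 4.94 [4.78, 5.12], and Fpr1 had 125 TPM in mAML and 0.94 TPM in LSC. Cxcr2, the receptor that draws neutrophils from the marrow, had 68 TPM in mAML and 5.48 TPM in LSC (3.71 [3.57, 3.85]). S100a9 and S100a8, which form calprotectin, had 36686 and 36075 TPM in mAML and 6218 and 11251 TPM in LSC. Together they took 7.28% of TPM in mAML and 1.75% in LSC. The 5 stefin family genes Stfa1, Stfa2, Stfa2l1, BC100530 and Gm5483, inhibitors of cysteine proteases, summed to 32467 TPM in mAML and 3161 TPM in LSC. Their ratios ran from 2.43 to 7.08, but near-identical copies share reads, so the split among them is uncertain. Csf3r, the receptor for the neutrophil growth factor G-CSF, did not separate the libraries (74.3 TPM in mAML and 80.2 TPM in LSC), and Trem3 was lower at -1.07 [-1.12, -1.02].

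**Figure D2:**
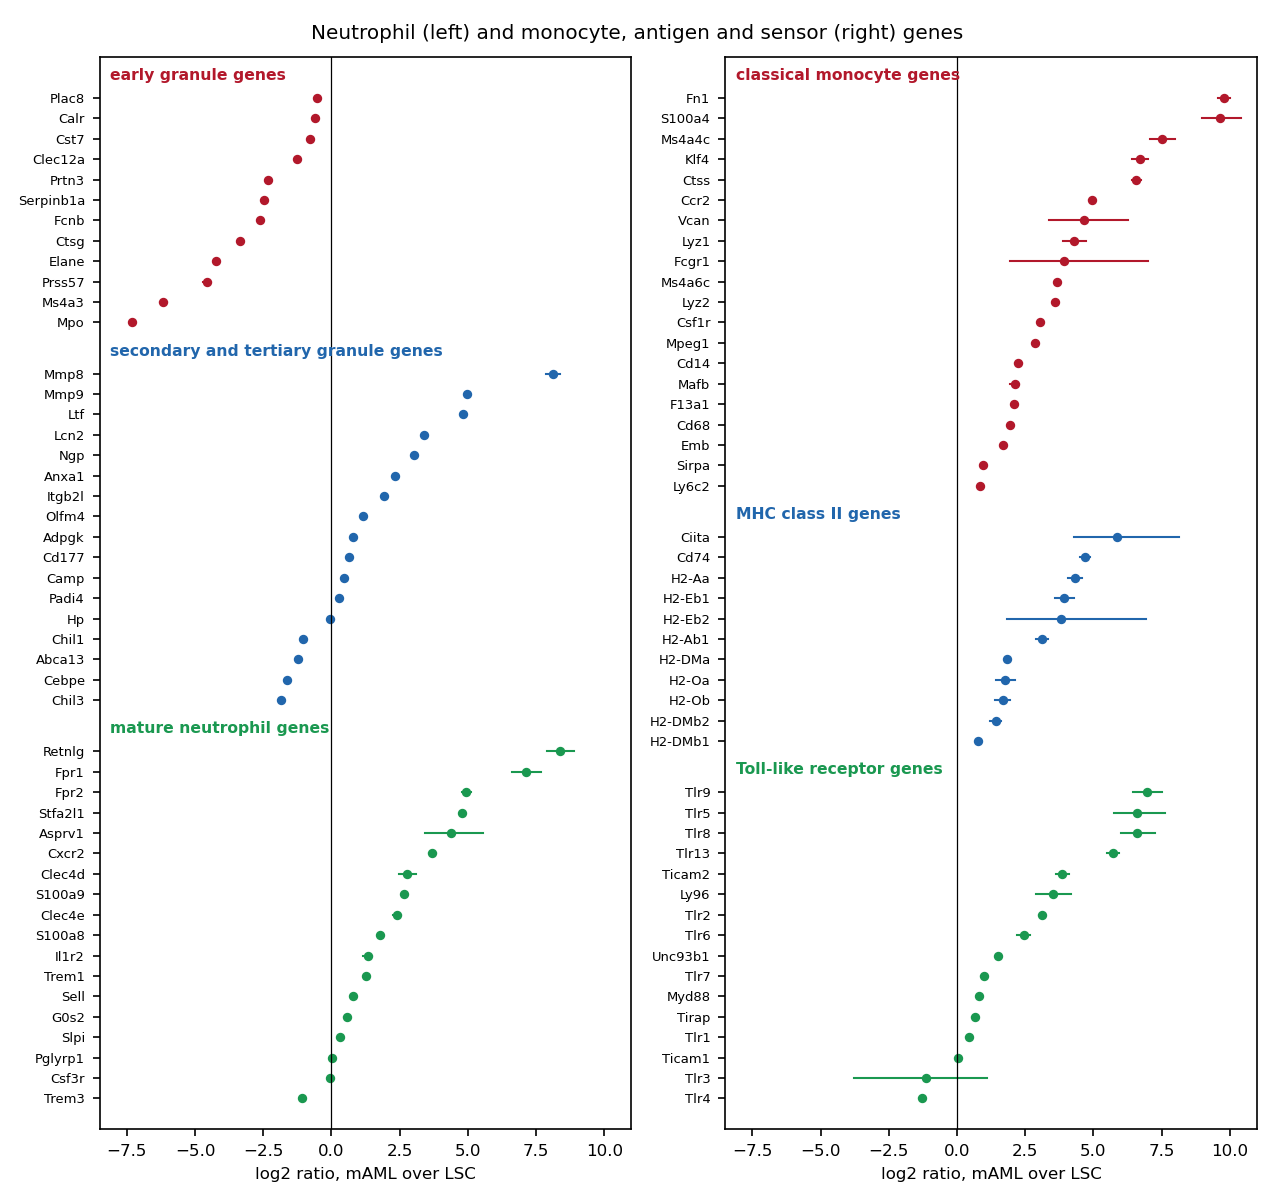
Log2 ratio of mAML over LSC (horizontal) with its 95% counting interval for each measured member of 6 lists, sorted within a list. Early granule genes lie between -7.31 and -0.54, secondary and tertiary granule genes between -1.86 and 8.13, and classical monocyte genes between 0.86 and 9.79.

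Monocyte genes were higher at the same time as late neutrophil genes. Of 20 classical monocyte genes, 17 were at least 2-fold higher and 0 lower of the 19 that reached 1 CPM, and the 20 summed to 29093 TPM in mAML and 6210 TPM in LSC. Ctss, the lysosomal protease cathepsin S, had 874 TPM in mAML and 9.63 TPM in LSC (6.58 [6.42, 6.74]). Ms4a4c had 157 TPM in mAML and 0.9 TPM in LSC (7.51 [7.07, 8.00]). Ccr2, the receptor by which monocytes leave the marrow, had 265 TPM in mAML and 8.97 TPM in LSC (4.95 [4.86, 5.05]). These levels were far apart, whereas Ly6c2, a surface antigen already present on progenitors, was at 6849 TPM in mAML and 3996 TPM in LSC. In bulk libraries, more cells of a kind and more RNA per cell cannot be told apart, and neither can matured leukemia cells and normal myeloid cells of the host.

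Nonclassical monocyte genes were higher in part. Of 13, 10 reached 1 CPM in mAML and 7 in LSC, 7 were at least 2-fold higher, and all 13 summed to 727 TPM in mAML and 448 TPM in LSC. Nr4a1, the factor these cells depend on, had 51.6 TPM in mAML and 3.73 TPM in LSC (3.86 [3.67, 4.05]). Cx3cr1, the fractalkine receptor, had 79.3 TPM in mAML and 8.13 TPM in LSC (3.36 [3.25, 3.46]). Spn was level, at 350 TPM in mAML and 373 TPM in LSC. Cd36 and Cd300e, further markers of these cells, had 6 and 16 counts in mAML and 1 and 6 in LSC, too few to order.

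Macrophage genes went both ways. Of 20, 15 reached 1 CPM in either library, 8 were at least 2-fold higher and 4 lower, and all 20 summed to 356 TPM in mAML and 156 TPM in LSC. Cd163, the scavenger receptor for hemoglobin, had 7412 counts in mAML and 6 in LSC (10.14 [9.01, 11.58]). Trem2, a lipid-sensing receptor, had 34.8 TPM in mAML and 0.83 TPM in LSC (5.47 [4.86, 6.15]), and Gpnmb, a lysosomal membrane glycoprotein, had 70.1 TPM in mAML and 2.93 TPM in LSC (4.65 [4.48, 4.82]). Hmox1, the enzyme that breaks down heme, had 63.5 TPM in mAML and 7.56 TPM in LSC, with 83.8 and 104 TPM in the 0 h libraries. Vcam1, an adhesion molecule of macrophages in marrow and spleen, had 1.07 TPM in mAML and 57.6 TPM in LSC (-5.68 [-5.97, -5.42]), but 0.22 and 0.3 TPM in the 0 h libraries, below mAML. C1qa, a complement subunit, had 0 counts in mAML and 65 in LSC, at least 23.8-fold lower, and the 3 C1q genes summed to 0.48 TPM in mAML and 7.59 TPM in LSC. Timd4 and Vsig4 had 0 and 1 counts in mAML and 5 and 3 in LSC.

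Dendritic genes were present at low levels in mAML. Of the conventional dendritic genes, 6 were at least 2-fold higher and 1 lower of the 8 at 1 CPM, yet their sum was lower, at 174 TPM in mAML and 210 TPM in LSC, of which Mgl2 made most in LSC. Cd209a, a lectin of monocyte-derived dendritic cells, had 558 counts in mAML and 0 in LSC, at least 169-fold higher. Irf4 had 1147 counts in mAML and 8 in LSC (7.03 [6.04, 8.24]), and Flt3, a receptor of progenitors and dendritic cells, had 2520 in mAML and 62 in LSC (5.21 [4.85, 5.60]). Mgl2 went the other way, at 18.9 TPM in mAML and 200 TPM in LSC (-3.33 [-3.43, -3.23]), while its neighbor in function Clec10a had 38.6 TPM in mAML and 3.47 TPM in LSC. Xcr1 and Clec9a, which define cross-presenting dendritic cells, had 1 and 12 counts in mAML and 3 and 4 in LSC. Of 9 plasmacytoid dendritic genes, 8 reached 1 CPM in mAML and 2 in LSC, and 4 had 0 counts in LSC. All 9 summed to 136 TPM in mAML and 60.3 TPM in LSC, of which Bst2 alone made 101 and 53.5 TPM. The same sum was 121 and 93.8 TPM in the 0 h libraries and 142 TPM in GMP, so it did not set mAML apart. Siglech, the defining receptor, had 346 counts in mAML and 0 in LSC, at least 105-fold higher. Their part in the Irf8 and MHC class II results was not tested.

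Antigen presentation genes of class II were higher. Of 11, 10 reached 1 CPM in mAML and 9 in LSC, 9 were at least 2-fold higher, and all 11 summed to 820 TPM in mAML and 207 TPM in LSC. H2-Aa and H2-Ab1, the chains of I-A, had 96.1 and 56 TPM in mAML and 5.11 and 6.82 TPM in LSC, ratios of 4.31 [4.06, 4.58] and 3.11 [2.90, 3.33]. H2-Eb1 had 26.5 TPM in mAML and 1.83 TPM in LSC (3.93 [3.60, 4.28]). Ciita, the coactivator that class II genes need, had 192 counts in mAML and 3 in LSC (5.86 [4.30, 8.15]). Genes of the peptide-loading helpers differed less, with H2-DMa at 1.85 [1.79, 1.91] and H2-DMb1 at 0.77 [0.71, 0.83]. GMP had 6.32 TPM of H2-Aa and the 0 h libraries 0.17 and 0.58 TPM, so mAML alone was high among the 5 libraries.

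The windows before the start of H2-Aa and H2-Eb1 are shown because both genes were higher and share a Y box, the element of class II promoters that the factor NF-Y binds. Capitals mark CTGATTGG on either strand. H2-Aa lies at chr17:34287824-34288073 on the minus strand and H2-Eb1 at chr17:34305617-34305866 on the plus strand, both from RefSeq promoters of build GRCm38.p6.
H2-Aa: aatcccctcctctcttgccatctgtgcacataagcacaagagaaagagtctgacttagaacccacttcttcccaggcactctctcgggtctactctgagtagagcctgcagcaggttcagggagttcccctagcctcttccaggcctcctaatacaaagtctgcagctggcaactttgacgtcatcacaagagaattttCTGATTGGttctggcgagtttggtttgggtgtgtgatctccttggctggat
H2-Eb1: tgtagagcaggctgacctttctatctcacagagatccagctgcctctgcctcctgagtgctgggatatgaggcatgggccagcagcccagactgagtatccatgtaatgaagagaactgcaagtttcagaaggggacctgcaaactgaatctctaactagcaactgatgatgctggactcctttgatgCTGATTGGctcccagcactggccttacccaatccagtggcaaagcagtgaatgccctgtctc
CTGATTGG stood in 1258 of the 32851 windows (3.83%) and in 4 of the 8 class II list genes that had one. These letters too were picked after the windows were read.

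Class I genes differed less. Of 13, 5 were at least 2-fold higher and 0 lower, against 16.5% and 8.97% over all genes at 1 CPM, with a median of 0.65. Against the summed 0 h libraries that median was -0.12, the other direction. Nlrc5, the coactivator of class I genes, had 3.2 TPM in mAML and 0.59 TPM in LSC (2.51 [2.22, 2.80]). H2-K1 and B2m, a heavy chain and the shared light chain, had ratios of 0.57 [0.54, 0.60] and 0.49 [0.46, 0.51].

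Sensors of nucleic acids and bacteria were mostly higher. Of 16 Toll-like receptor genes and adaptors, 15 reached 1 CPM in mAML and 11 in LSC, 9 were at least 2-fold higher and 1 lower, and all 16 summed to 950 TPM in mAML and 320 TPM in LSC. Tlr9, the sensor of bacterial DNA, had 38.8 TPM in mAML and 0.33 TPM in LSC (6.95 [6.44, 7.51]). Tlr13 and Tlr8, sensors of RNA, had ratios of 5.72 [5.51, 5.93] and 6.61 [6.03, 7.25], and Tlr5, the flagellin receptor, had 6.61 [5.77, 7.62]. Tlr4, the receptor of lipopolysaccharide, was the exception at 6.03 TPM in mAML and 15.4 TPM in LSC (-1.28 [-1.41, -1.15]). Its partners Ly96 (3.51 [2.91, 4.17]) and Cd14 (2.25 [2.12, 2.37]) were higher. So were cytokine genes downstream in the inflammatory response: Il1b had 44.8 TPM in mAML and 1.12 TPM in LSC (5.40 [4.93, 5.91]) and Il1rn, its antagonist, 49.7 TPM in mAML and 10.6 TPM in LSC. Of 13 inflammasome and IL-1 genes at 1 CPM, 5 were at least 2-fold higher and 1 lower. Nlrp3 had the largest ratio of them, with 4136 counts in mAML and 6 in LSC (9.29 [8.17, 10.74]). Casp4, Gsdmd, Aim2 and Nlrc4 of the same list lay within 2-fold.

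The killing machinery was less divided. Of 6 phagocyte oxidase genes only Cybb, the catalytic subunit, passed 2-fold, with 472 TPM in mAML and 125 TPM in LSC (1.99 [1.96, 2.01]). Cyba, Ncf4, Ncf1 and Rac2 had ratios of 0.49, 0.30, -0.10 and -0.30. Of 6 Fc receptor genes 5 reached 1 CPM. Fcgrt, the recycling receptor of IgG, had 84.3 TPM in mAML and 6.74 TPM in LSC (3.72 [3.55, 3.89]), Fcer1g, the shared signaling chain, had 1.30 [1.27, 1.34], and Fcgr3, Fcgr4 and Fcgr2b had 0.18, -0.16 and -0.20. Fcgr1, at 33 counts in mAML and 2 in LSC, stayed under 1 CPM, although it is a common monocyte marker, and its 0.42 TPM in mAML lay below the 2.73 and 3.01 TPM of the 0 h libraries. Of 26 lysosome genes, 12 were at least 2-fold higher and 1 lower, with sums of 7597 TPM in mAML and 3361 TPM in LSC. Psap, the precursor of sphingolipid activators, led with 2273 TPM in mAML and 158 TPM in LSC (3.91 [3.88, 3.93]).

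Receptors and adhesion molecules were higher more often than lower. Of 24 cytokine receptor genes, 14 were at least 2-fold higher and only Kit was lower, with sums of 2500 TPM in mAML and 1558 TPM in LSC. Il10ra, a receptor chain for the inhibitory cytokine IL-10, had 58.5 TPM in mAML and 0.32 TPM in LSC (7.60 [7.08, 8.17]). Il6st, the signaling chain for IL-6, had 60.5 TPM in mAML and 0.51 TPM in LSC (6.97 [6.65, 7.32]). Il13ra1 (6.26 [5.90, 6.65]) and Il17ra (4.30) followed. Receptors for growth factors of progenitors did not behave alike. Csf2ra (0.49) and Csf3r (-0.04) were nearer level, whereas Kit (-7.15) and Flt3 (5.21) were far from it. Of 14 integrin genes, 13 reached 1 CPM in either library, 7 were at least 2-fold higher and 1 lower, against 16.5% and 8.97% over all genes at that level, and all 14 summed to 1676 TPM in mAML and 705 TPM in LSC. Itgb7, a partner of Itga4 in homing, had 301 TPM in mAML and 0.72 TPM in LSC (8.79 [8.39, 9.21]), but the 0 h LSC libraries had 189 and 181 TPM. S100a6 (8.02 [7.70, 8.36]) and Emilin2 (7.93 [7.66, 8.21]) were like Itgb7 in this, with 1215 and 240 TPM in mAML, 4.97 and 1.03 TPM in LSC, and 405 to 443 and 236 TPM in the 0 h libraries.

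Chemokine and interferon genes were also higher. Of 18 chemokine and receptor genes, 12 reached 1 CPM in mAML and 8 in LSC, 11 were at least 2-fold higher and 1 lower, and all 18 summed to 1598 TPM in mAML and 490 TPM in LSC. Ccl3, a monocyte attractant, had 456 TPM in mAML and 57.5 TPM in LSC (3.07 [2.98, 3.17]), and its receptor Ccr1 had 104 TPM in mAML and 13.9 TPM in LSC. Of 30 interferon response genes, 29 reached 1 CPM in mAML and 19 in LSC, 20 were at least 2-fold higher, and all 30 summed to 716 TPM in mAML and 252 TPM in LSC. Ifi27l2a had 211 TPM in mAML and 2.44 TPM in LSC (6.51 [5.89, 7.20]), while Ifih1 (-0.15) was level.

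Most myeloid transcription factors were higher. Of 24 myeloid transcription factors, 16 were at least 2-fold higher and only Gfi1 lower. Irf5, a factor of inflammatory macrophages, had 206 TPM in mAML and 3.27 TPM in LSC (6.04 [5.83, 6.25]). Klf2 (2.51 [2.44, 2.59]), Klf6 (2.15 [2.09, 2.21]) and Bcl6 (2.02 [1.87, 2.17]) were also at least 4-fold higher, and Cebpb, which acts in emergency granulopoiesis, had 1.06 [1.01, 1.11]. Cebpa, which starts granulopoiesis, had -0.27 [-0.32, -0.22]. Of 22 immediate-early genes, 10 were at least 2-fold higher and only Myc lower, with Atf3 at 5.34 [4.73, 6.02] and Fos at 2.39 [2.36, 2.43].

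Most MLL-fusion targets lay within 2-fold. Of 28 MLL-fusion targets, 23 reached 1 CPM in either library, 3 (13%) were at least 2-fold higher and 1 (4.35%), Mecom, lower, near or below the 16.5% and 8.97% of all genes at 1 CPM. The median was -0.28, against -0.03 over all those genes, and 0.68 against the summed 0 h libraries, so its direction rests on which LSC libraries are used. Bcl2 (2.14 [1.99, 2.30]) and Satb1 (1.54 [1.28, 1.81]) were among the higher, but both had more TPM in the 0 h libraries than in mAML. Hoxa10 had 23.2 TPM in mAML and 37.6 TPM in LSC, and Hoxa5 had 53.3 TPM in mAML and 84.2 TPM in LSC, ratios of -0.63 [-0.72, -0.54] and -0.59 [-0.66, -0.52]. Hoxa7 (0.15) and Dot1l (0.01) were level. Of 19 stem and progenitor genes at 1 CPM, 4 (21.1%) were at least 2-fold higher and 4 (21.1%) lower, against 16.5% and 8.97% of all genes. Angpt1, a stem cell niche ligand, had 195 counts in mAML and 861 in LSC (-2.28 [-2.51, -2.05]). Flt3 (5.21 [4.85, 5.60]) and Cd34 were among the higher. Cd34 had 141 TPM in mAML and 40 TPM in LSC (1.90 [1.83, 1.96]), but 226 and 248 TPM in the 0 h libraries, above mAML. Hlf, a stem cell factor, had 3 counts in mAML and 36 in LSC (-3.72 [-6.06, -2.06]), under 1 CPM in both and so outside the 19. Lmo2, Lyl1, Erg and Fli1, factors of blood stem cells, were within 2-fold, at -0.58, -0.30, -0.60 and -0.48.

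Mitotic genes were lower and replication genes nearly level. Of 30 G2 and mitosis genes, 25 were at least 2-fold lower and 0 higher, and they summed to 1443 TPM in mAML and 3609 TPM in LSC. Their median was -1.28, but only -0.37 against the summed 0 h libraries, where the sums were 2020 and 2071 TPM. Cdk1, the kinase that drives mitosis, had 43.5 TPM in mAML and 143 TPM in LSC (-1.64 [-1.70, -1.59]). Cenpf and Cenpe, of the kinetochore, had -1.70 [-1.77, -1.64] and -1.65 [-1.72, -1.59]. None of 32 S-phase and replication genes passed 2-fold, and their median was -0.31, with Cdc45 at -0.90 and Mcm4 at 0.01. The 0 h libraries had 69.3 and 66 TPM of Cdk1, between the levels of mAML and LSC. Among inhibitors, Cdkn2a had 2.64 [2.12, 3.19], Cdkn1b 1.15 [1.05, 1.26], and Cdkn1a had 23.5 TPM in mAML and 3.71 TPM in LSC (2.74 [2.52, 2.97]), with 199 and 226 TPM in the 0 h libraries, above mAML. Cdkn1c had 1.33 TPM in mAML and 34.6 TPM in LSC (-4.63 [-4.98, -4.30]), and 0 TPM in both 0 h libraries, below mAML.

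Members of the MYC family went both ways, with Myc itself at 22.9 TPM in mAML and 105 TPM in LSC. Mycl had 1754 counts in mAML and 1 in LSC (10.64 [8.16, 15.95]), and its levels were 0 TPM in both 0 h libraries and 0.26 TPM in GMP. Of 27 MYC network and ribosome biogenesis genes, 4 were at least 2-fold lower and 2 higher, with Odc1, the polyamine enzyme, at -1.41 [-1.47, -1.34] and Tfrc, the transferrin receptor, at -1.97 [-2.06, -1.88]. None of 36 ribosomal protein genes and none of 32 respiratory chain genes passed 2-fold, with medians of -0.42 and -0.10. Of 20 glycolysis genes, Slc2a3, a glucose transporter, was higher (3.66 [3.52, 3.80]), Pfkfb3 lower (-1.10 [-1.17, -1.04]) and 18 within 2-fold. Of 15 BCL2 family genes at 1 CPM, 4 (26.7%) were at least 2-fold higher and 1 (6.67%) lower, against 16.5% and 8.97% of all genes. The higher were Bmf (2.88 [2.71, 3.05]) and Bbc3 (2.85 [2.52, 3.20]), which promote death, and Bcl2 (2.14 [1.99, 2.30]) and Mcl1 (1.34 [1.31, 1.38]), which oppose it. Bcl2a1a was lower (-1.53 [-1.78, -1.27]). Bbc3 had 10.9 TPM in mAML and 1.59 TPM in LSC, but 21 and 34.6 TPM in the 0 h libraries. Bcl2 had 9.33 TPM in mAML and 2.59 TPM in LSC, but 15.7 and 13.6 TPM in the 0 h libraries.

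**Figure D3:**
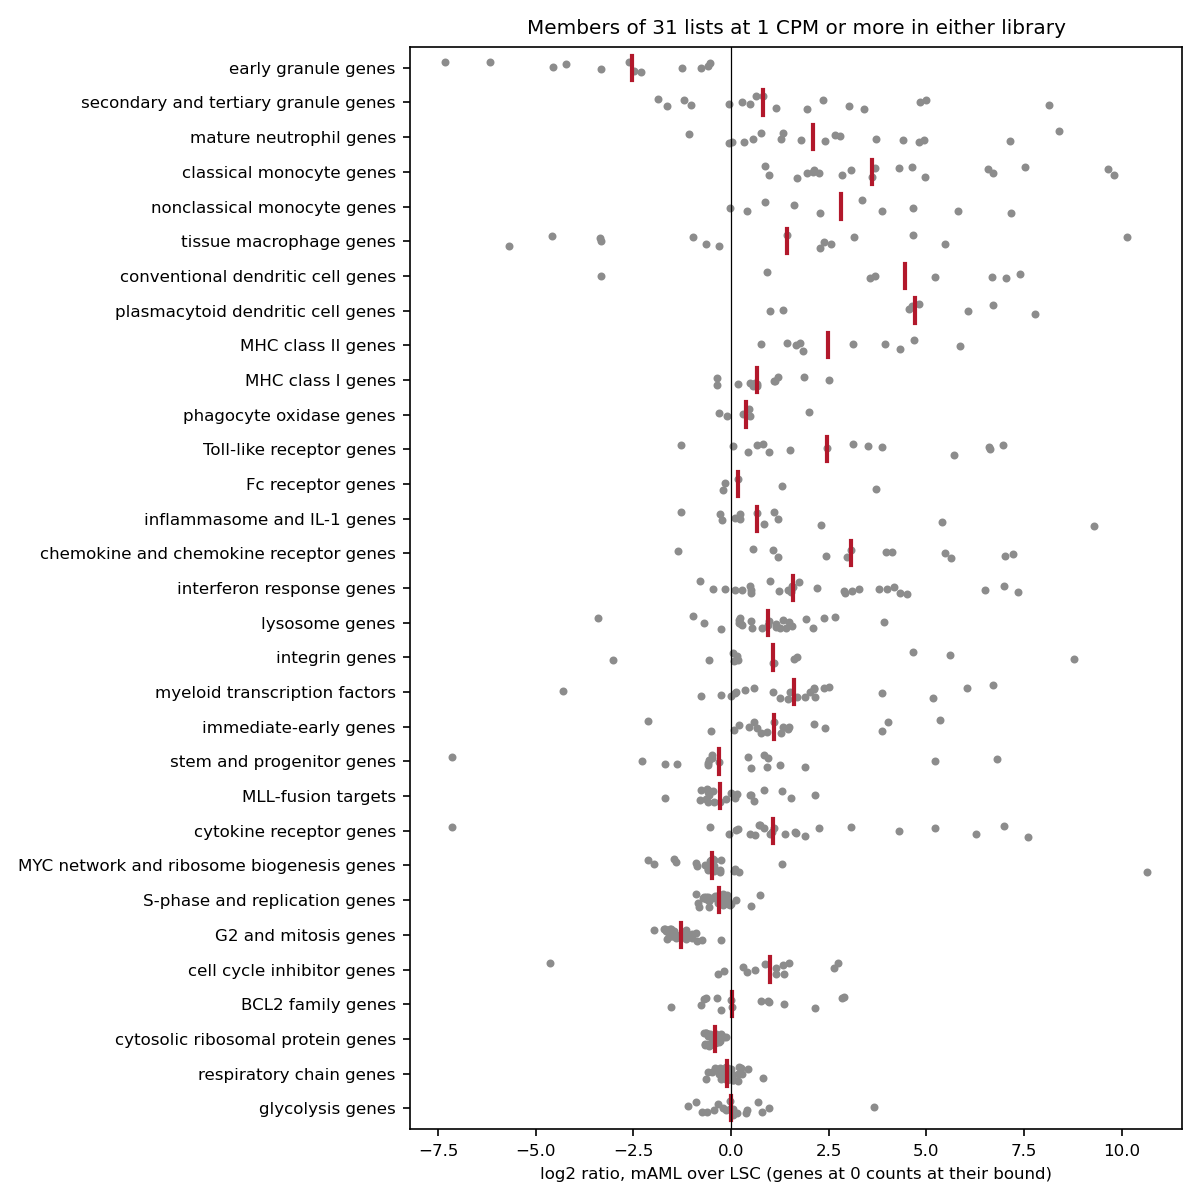
Log2 ratio of mAML over LSC (horizontal) for members of 31 lists at 1 CPM or more in either library (gray points), with the list median (red bar) and genes at 0 counts at their bound. The median is -2.54 for early granule genes, ribosomal and respiratory genes lie close to 0, and members at 1 CPM in mAML alone, as most plasmacytoid dendritic genes are, had to be higher there.

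Markers of lymphoid cells stood in mAML and hardly in LSC. Of 22 T cell markers, 21 reached 1 CPM in mAML and 5 in LSC, and they summed to 164 TPM in mAML and 12.6 TPM in LSC. Cd3e, Cd3g and Trat1 had 0 counts in LSC, against 264, 603 and 3 in mAML. Cd8a had 487 counts in mAML and 1 in LSC, whereas Cd4 had 84 in mAML and 16 in LSC. Of 18 NK cell markers, 15 reached 1 CPM in mAML and 1 in LSC. Il2rb, the IL-2 receptor chain of NK and memory T cells, had 2349 counts in mAML and 1 in LSC, Eomes, a factor of those cells, had 339 in mAML and 2 in LSC, and Ncr1, the NK receptor, had 93 in mAML and 0 in LSC. Nkg7 was the exception, at 43.3 TPM in mAML, 153 TPM in LSC and 996 TPM in GMP. Without it, the 39 T and NK markers summed to 450 TPM in mAML and 14.8 TPM in LSC, which is 0.045% of all TPM in mAML and 0.00148% in LSC, with 28.6 and 24.9 TPM in the 0 h libraries.

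Most B cell markers stayed under 1 CPM in both libraries. Of 16, 5 reached 1 CPM in mAML and 2 in LSC, and 9 had 0 counts in LSC. Ms4a1 and Pax5, which define B cells, had 11 and 5 counts in mAML and 0 in LSC. The list summed to 78.9 TPM in mAML and 52.7 TPM in LSC, of which Cd79b alone made 55.3 TPM in mAML and 48.2 TPM in LSC. Cd22, with 1020 counts in mAML and 11 in LSC, and Bank1, with 824 in mAML and 238 in LSC, were thus far above Ms4a1 and Pax5. Of 7 plasma cell markers, 5 reached 1 CPM in mAML and 2 in LSC. Jchain, the joining chain of antibodies, had 3210 counts in mAML and 284 in LSC. Sdc1, the surface marker of plasma cells, had 358 counts in mAML and 7 in LSC, and Prdm1, their master factor, had 106 in mAML and 19 in LSC. Mzb1, Tnfrsf17 and Tnfrsf13b had 67, 27 and 546 counts in mAML and 10, 5 and 228 in LSC. Derl3 was the only member with fewer counts in mAML, 14 against 18 in LSC.

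Erythroid RNA in mAML was almost all hemoglobin. Of 25 erythroid markers in the tables, 9 reached 1 CPM in mAML and 4 in LSC, 10 had 0 counts in LSC, and they summed to 3932 TPM in mAML and 21.8 TPM in LSC. Hba-a1 had 26446 counts in mAML and 45 in LSC, and Hbb-b1 had 20711 in mAML and 38 in LSC. With Hba-a2, Hbb-b2, Hbb-bt and Hbb-bs these 6 genes summed to 4139 TPM in mAML (0.414% of TPM) and 7.38 TPM in LSC. Near-identical copies share reads, and Hbb-b2 and Hbb-bt carry identical values, so the level of a single copy is uncertain. The 20 other markers summed to 35.6 TPM in mAML and 14.6 TPM in LSC. Alas2, the first enzyme of heme synthesis in red cells, had 871 counts in mAML and 2 in LSC, and Slc4a1, the band 3 anion exchanger, had 241 in mAML and 1 in LSC. Gata1, Klf1 and Epor, the regulators of erythroid precursors, had 5, 18 and 1 counts in mAML and 6, 27 and 0 in LSC. Hbb-b2 was also at 285 and 298 TPM in the 0 h libraries, where Hba-a1 was at 1.42 and 0.53 TPM.

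Other lineages were sparse. Of 15 megakaryocyte markers, 4 reached 1 CPM in mAML and 3 in LSC, and Pf4, Ppbp and Gp6 had 1, 0 and 0 counts in mAML and 2, 0 and 0 in LSC. Of 13 mast cell and basophil markers, 5 reached 1 CPM in mAML and 6 in LSC, and they summed to 41.4 TPM in mAML and 127 TPM in LSC, of which Kit made 0.63 TPM in mAML and 93.35 TPM in LSC. The 8 eosinophil markers summed to 32.2 TPM in mAML and 83 TPM in LSC. Siglecf made 17.9 TPM of that in mAML and 64.9 TPM in LSC. Prg3 and Prg2, granule proteins, had 8.64 and 5.14 TPM in mAML and 13 and 5.03 TPM in LSC, while Epx, Ccr3, Il5ra, Ear1 and Ear6 had at most 4 counts in either library. Of 18 stromal and endothelial markers, 9 reached 1 CPM in mAML and 4 in LSC. Cxcl12, a niche chemokine, had 826 counts in mAML and 51 in LSC and Col1a2, a collagen chain, 325 in mAML and 7 in LSC, while Kdr and Emcn, which define vessel lining, had 0 in mAML. Pecam1, which myeloid cells also bear, held 67.9 of the 93.8 TPM of the list in mAML and 9.63 of 13.4 TPM in LSC, and stood at 375 and 331 TPM in the 0 h libraries.

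A separate measure came from genes of the sex chromosomes, looked up after the other values were seen. Xist, expressed from the inactive X in female cells, had 14.8 TPM in mAML, 25.4 TPM in LSC, 15.8 and 30.9 TPM in the 0 h libraries and 0.01 TPM in GMP. The 4 Y-linked genes Ddx3y, Uty, Eif2s3y and Kdm5d had 49, 14, 59 and 23 counts in mAML and 0, 0, 1 and 2 in LSC. They summed to 1.66 TPM in mAML, 0.03 TPM in LSC, 0.05 and 0.13 TPM in the 0 h libraries and 86.3 TPM in GMP. The mAML sum was 1.92% of that in GMP and the LSC sum 0.0348%. These are ratios of transcript levels between different cell types and not shares of cells.

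**Figure D4:**
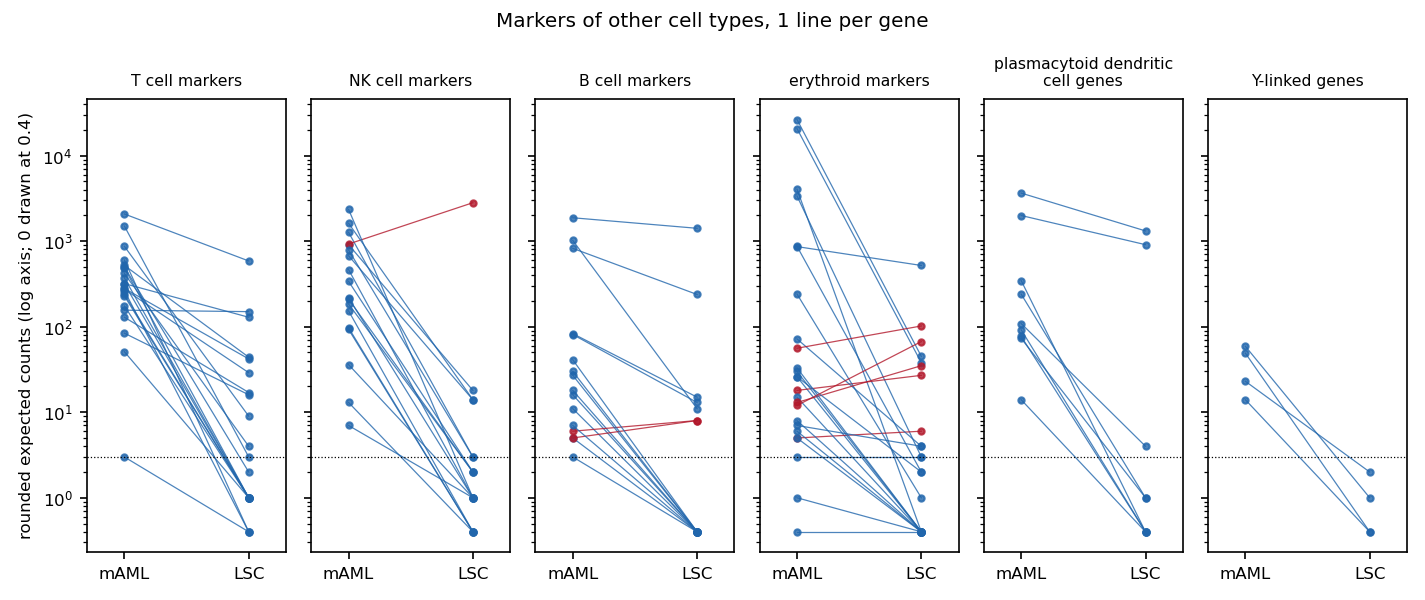
Rounded expected counts (vertical, log axis, 0 drawn at 0.4) of each marker in mAML (left) and LSC (right), 1 line per gene, blue where mAML was at least as high and red where LSC was higher, with a dotted line at 3 counts. T and NK markers mostly stand well above the dotted line in mAML and on or below it in LSC, and the erythroid panel holds a few hemoglobin genes with 3374 to 26446 counts in mAML far above most other markers.

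The size of the myeloid and of the other signals can be set side by side. Mature neutrophil genes took 8.08% of TPM in mAML and 1.99% in LSC, and classical monocyte genes 2.91% in mAML and 0.621% in LSC. The T and NK markers without Nkg7, the B cell markers and the 6 hemoglobin genes took 0.045%, 0.00789% and 0.414% in mAML. Of the 563 genes at least 4-fold higher, 22 stood in the 9 lists of other cell types and 541 outside them, 74 in the myeloid, antigen and effector lists, and 449 in no list. Members found numbered 142 in the lists of other cell types, 114 in the myeloid, 24 in the antigen and 130 in the effector lists. Of 9082 genes at 10 CPM, 9049 remained without the lists of other cell types. Most of the few such markers at 10 CPM were thus among the 22, against 6.2% of all genes. A marker at 10 CPM in mAML alone had to be higher there. Among the 30 genes with 10 CPM or more in mAML and 3 or fewer counts in LSC, 11 were markers of other cell types. The part of these cells in genes outside the lists was not tested.

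**Figure D5:**
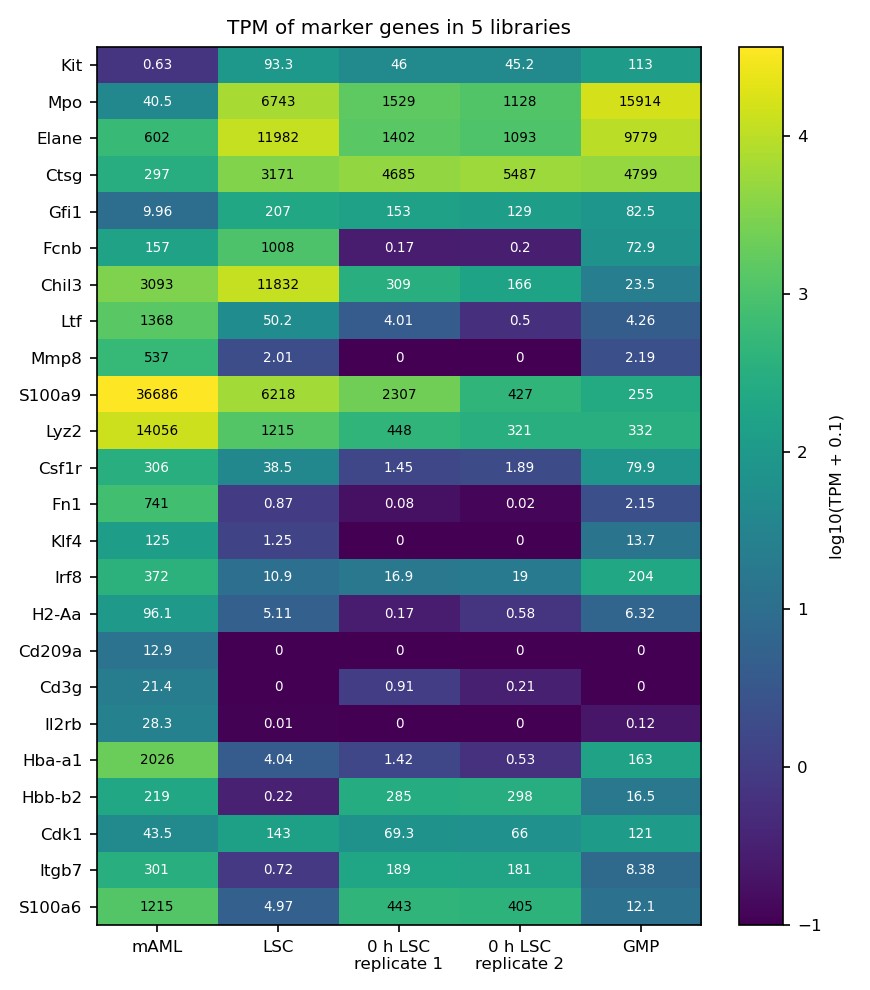
TPM (printed in each cell) of 24 genes in mAML, LSC, the 0 h LSC replicates and GMP, colored by log10 of TPM plus 0.1. Fn1, Klf4, Mmp8 and H2-Aa are highest in mAML, Fcnb, Chil3 and Csf1r are higher in LSC than in the 0 h libraries, and Itgb7, S100a6 and Hbb-b2 are high in mAML and the 0 h libraries but not in LSC.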

How the data were processed

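The submitters' processing notes name STAR, RSEM and the build mm9, without settings or versions. Going by the file headers, the deposited tables hold RSEM's expected counts, which are estimated reads per gene, and TPM, which the authors' software scaled for length and depth within a library. Reads of near-identical genes are split by estimate, so levels within such families are uncertain.

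Expected counts were rounded and scaled with TMM factors from the mAML and LSC libraries alone (edgeR 4.0.16, R 4.3.3). Ratios carry exact binomial (Clopper-Pearson) 95% intervals, which cover counting error only. The simulated data on which they were tested held that error alone, so the test could not speak to reads split by estimate. A gene at 0 counts was set to a floor of 3 counts per library. Folds given as at least are taken at that floor and are not ends of the 95% interval. Genes at 10 CPM or more in the higher library were counted at 4-fold, and list members at 1 CPM or more in either library at 2-fold. A member that passes through 1 library alone had to be higher there, so summed TPM over all members found is given beside the counts of most lists. Of 750 entries in 40 lists, 748 were found. Other settings were library size alone, DESeq2 1.42.0 size factors, TPM with 1 added, a prior of 5 counts, other filters and the summed 0 h libraries in place of LSC.

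The genes named were Kit and Irf8, the 12 highest and 12 lowest ratios at 100 TPM or more, the 10 largest differences in TPM each way, and up to 4 members per list at 10 CPM or more by size of ratio, or all members of a list of 8 or fewer; other genes named were chosen after their values were seen. The members and lists were chosen with earlier results of these data known. Promoters came from RefSeq (GRCm38.p6), and no coordinates of the older build are given. Some members of the lists are not reported here by name.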

Additional observations from a re-analysis of the deposited data

How the results depend on the processing

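The counts of 563 genes at least 4-fold higher and 125 lower in mAML kept within 1.5 times under library size alone (536 and 152), DESeq2 size factors (575 and 120), TPM with 1 added (428 and 85) and a prior of 5 counts (556 and 122). Leaving out the markers of other cell types, an alternative chosen after seeing the data, gave 541 and 124. With a filter at 1 CPM the counts were 1118 and 267, and with no filter 1608 and 451, since more genes were then considered. Against the summed 0 h libraries in place of LSC they were 814 and 536, and higher genes made 60.3% of those calls against 81.8%. The ratio changed sign there for 34 of 175 named genes, Chil3 (3.92), Il1rap (2.87) and Gata2 (-2.18) among them, and for 6 of 40 list medians. Of the 113 named genes with a 4-fold ratio, 12 changed sign: Fcnb (10.05), Cdkn1c (3.53), Scnn1a (3.17), Vcam1 (2.23), Prtn3 (0.18), Ccl6 (-0.0023), Atp6v0a1 (-0.16), Bcl2 (-0.49), Bbc3 (-1.12), Pecam1 (-2.21), Fcgr1 (-2.60) and Cdkn1a (-2.95); the cause was not tested. Under the 4 other settings run on them, no named gene with a 4-fold ratio changed sign. Library size alone and TPM moved the median ratio of all genes by -0.09 and -0.07. No paired analysis was possible because mAML and LSC have 1 library each, and for the same reason no replicate could be left out. A marker at 0 counts in LSC could be present at up to 0.0719 scaled CPM, the level of 3 counts.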

Other observations

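Outside the gene lists, several genes were nearly silent in LSC and clear in mAML. Tarm1, an activating receptor of myeloid cells, had 805 counts in mAML and 0 in LSC, at least 244-fold higher, and 11.4 and 2.7 TPM in the 0 h libraries. Rnd3, a small GTPase that lowers contractility, had 1261 counts in mAML and 1 in LSC (10.16 [7.68, 15.47]), and 9.32 and 6.61 TPM in the 0 h libraries. Gimap4 and Gimap3, GTPases known from lymphocytes, had 1356 and 753 counts in mAML and 3 and 3 in LSC, and at most 0.14 TPM in the 0 h libraries. Zc3h12d, a ribonuclease of the regnase family, had 960 counts in mAML and 3 in LSC (8.19 [6.63, 10.47]).

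On the lower side, Scnn1a, a subunit of the epithelial sodium channel, had 29.3 TPM in mAML and 175 TPM in LSC, and 4.31 and 2.93 TPM in the 0 h libraries. Rgcc, a regulator of the cell cycle, had 30.6 TPM in mAML and 296 TPM in LSC (-3.19 [-3.30, -3.08]), with 205 and 166 TPM in the 0 h libraries. Mgst2, an enzyme of glutathione and leukotriene metabolism, had 49.2 TPM in mAML and 328 TPM in LSC (-2.65 [-2.77, -2.53]), with 589 and 368 TPM in the 0 h libraries.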
